A study of Gallus gallus with 4 samples.

Results

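Notch receptors, their ligands, the enzyme LFNG that modifies the receptors, and transcriptional targets of the pathway were described in the dermal papilla of the chicken feather. They were chosen by gene name from a list of 10 (NOTCH1, NOTCH2, JAG1, JAG2, DLK2, LFNG, HEY1, HEY2, HEYL and NRARP), and 9 of these names matched a row among the 15386 genes of the expression table. The list was made with earlier results of these data known. HEY2 was not analysed here. The dermal papilla is a condensation of mesenchymal cells at the follicle base that instructs the overlying epithelium to grow a feather. The study compared gene expression on its anterior side with that on its posterior side. The anterior group was 2 libraries of dermal papilla complex from the anterior side, and the posterior group was 2 libraries from the posterior side. All came from untreated White Leghorn chickens, from dorsal feathers in the growing stage. The labels give no age, sex or number of birds, so the spread within a side may be technical, and p-values measure only that spread.

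Notch receptors are membrane proteins that are activated by ligands on a neighbouring cell. Binding leads to cleavage of the receptor, and the released intracellular part joins the DNA-binding protein RBPJ and a Mastermind coactivator to switch on targets such as the HES and HEY repressors. In chick skin, Notch receptors and their Delta and Serrate (Jagged) ligands are expressed in developing feathers, and the pathway takes part in the spacing of feather primordia.

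Values were RPKM, reads scaled to gene length and to the mapped reads of the library, so levels can be set side by side between genes. The median gene measured 4.68 to 4.88 RPKM in the anterior libraries, against 3.75 and 4.62 RPKM in posterior libraries 1 and 2. The steps between low values gave relative depths of 77.1% for posterior library 1 and 99.6% to 99.9% for anterior library 2 and posterior library 2, each as a share of anterior library 1. The number of reads is unknown. Posterior library 1 stood apart from the rest. The summed level of 8 smooth muscle markers was 3934 RPKM in it, and 199 to 282 RPKM in the other libraries. The members' differences are therefore also given without it. All 12 dermal papilla markers looked for were above 0 in every library, though not all reached 1 RPKM in the posterior libraries. That is a low bar, as only 639 to 969 of the 15386 genes were at 0 in a library. Most marker lists of other cell types, given below, were likewise above 0. The epidermal sum was 1345 to 3296 RPKM, the mesenchyme sum 1858 to 3419 RPKM and the dermal papilla sum 127 to 223 RPKM.

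All 9 members had a higher mean in anterior than in posterior tissue, and for none of them did the difference pass the test. With limma on log2(RPKM + 1) and Benjamini-Hochberg adjustment over 10939 tested genes, 0 of 9 members had an adjusted p under 0.05, and 0% of all tested genes did. The adjusted p was 0.964 for 8 members and 0.967 for JAG1. HEYL was the one member with an unadjusted limma p under 0.05. No member had one at pseudocounts of 0.1 or 0.5, with no filter, or after quantile or TPM scaling. Of all tested genes 0.942% reached that level, and 0.713% did so with the higher mean in anterior tissue. Both anterior libraries lay above both posterior libraries for 7 of 9 members, and the same held for 18.9% of tested genes. The members were chosen with earlier results of these data known, so their shares and medians were not tested against those of all genes. No member had both posterior libraries above both anterior libraries, as 7.25% of tested genes did. The median log2 difference, anterior minus posterior, was 0.77 over the members and 0.11 over all tested genes, of which 64.6% had a positive difference. Without posterior library 1, which leaves 1 posterior library, these medians were 0.26 and 0.023. Then 8 of 9 members remained positive, beside 55.8% of all tested genes. With 2 libraries against 2, an exact permutation test of a single gene cannot give a two-sided p below 0.333.

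**Figure D1:**
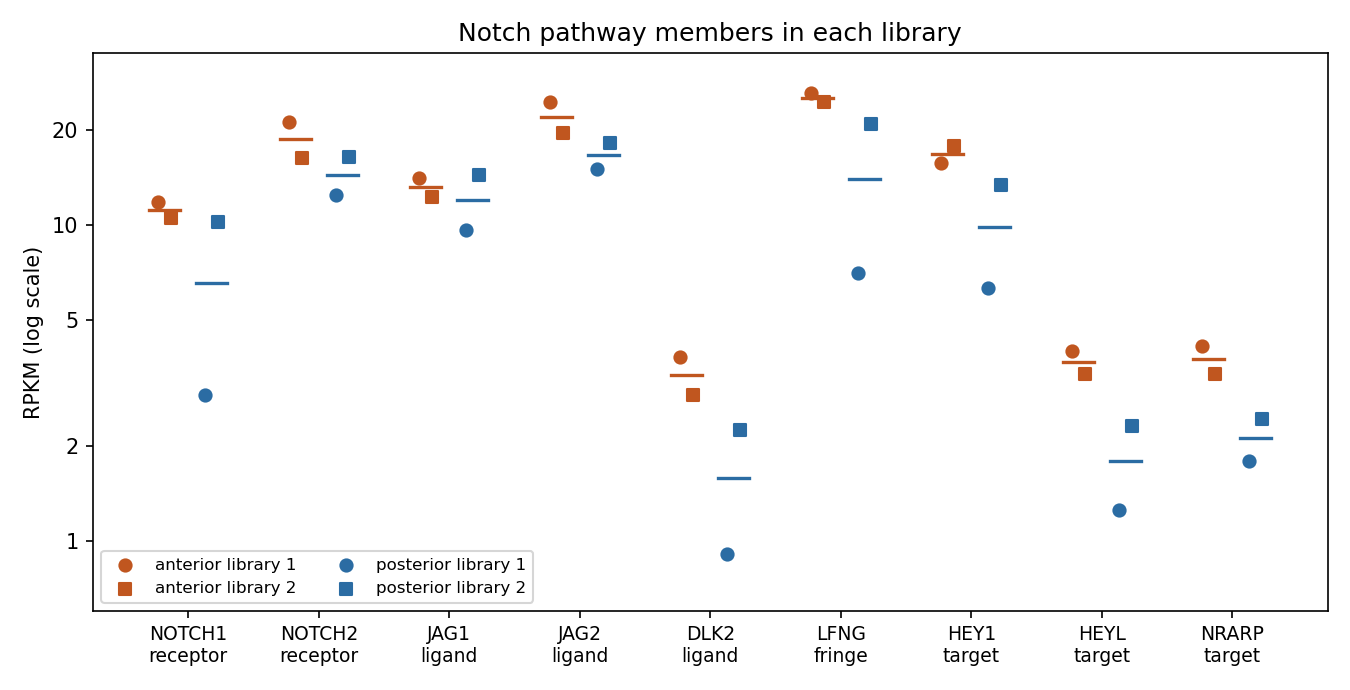
Level of each member in RPKM (log scale) in each library, anterior left of posterior within a gene, with short lines at the means of the 2 libraries of a side. Posterior library 1 is the lowest point of all 9 genes, and the sides overlap for NOTCH2 and JAG1.

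The receptors differed from each other in how far posterior library 1 lay from the rest. NOTCH1, a receptor found in most tissues, measured 11.8 and 10.5 RPKM in anterior libraries 1 and 2, against 2.90 and 10.2 RPKM in posterior libraries 1 and 2. The sides did not overlap, but posterior library 2 lay just under the lower anterior library, and the separation came almost wholly from posterior library 1. The log2 difference was 0.87 with a standard error of 0.52 (limma, n = 2 each). It was 0.11 without posterior library 1 and 1.64 without posterior library 2, with posterior library 1 then alone on its side. NOTCH2, its close relative, measured 21.1 and 16.3 RPKM in anterior libraries, against 12.4 and 16.4 RPKM in posterior libraries. Here posterior library 2 lay at the level of anterior library 2, so the sides overlapped. The log2 difference of NOTCH2 was 0.36 ± 0.28 (SE), and 0.17 without posterior library 1. The NOTCH2 level was 1.79 and 1.56 times the NOTCH1 level in the anterior libraries, against 4.28 and 1.61 times in the posterior libraries. This ratio is taken within a library and does not depend on scaling between libraries.

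Of the ligands among the members, JAG2 and JAG1 carried the higher levels and the smaller differences. JAG2, a Serrate-type ligand, measured 24.4 and 19.5 RPKM in anterior libraries, against 15.0 and 18.2 RPKM in posterior libraries. The sides did not overlap, with anterior library 2 and posterior library 2 closest to each other. The log2 difference of JAG2 was 0.38 ± 0.26 (SE), and 0.25 without posterior library 1. JAG1, the other Serrate-type ligand, measured 14.1 and 12.3 RPKM in anterior libraries, against 9.65 and 14.4 RPKM in posterior libraries. Posterior library 2 was the highest of the 4 and posterior library 1 the lowest, so both anterior libraries lay inside the posterior range. The log2 difference of JAG1 was 0.14 ± 0.29 (SE), and it turned to -0.12 without posterior library 1. DLK2 is a non-canonical relative of the Delta ligands that lacks the receptor-binding DSL domain of the Jagged and Delta proteins. It measured 3.82 and 2.89 RPKM in anterior libraries, against 0.906 and 2.25 RPKM in posterior libraries. The sides did not overlap, and the log2 difference was 0.80 ± 0.35 (SE), or 0.41 without posterior library 1. The DLK2 difference was thus larger than those of JAG1 and JAG2 in the fit, although the difference between genes was not tested.

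LFNG is a fringe glycosyltransferase that extends sugars on the Notch receptor and so shifts its response between Delta and Jagged ligands. It measured 26.1 and 24.4 RPKM in anterior libraries, against 7.05 and 20.9 RPKM in posterior libraries. The anterior libraries lay close together and above both posterior libraries, of which posterior library 1 was by far the lower. The log2 difference of LFNG, 0.99 ± 0.49 (SE), was the largest among the 9 members at a pseudocount of 1. At a pseudocount of 0.1, DLK2 at 1.15 and HEYL at 1.06 exceeded LFNG at 1.05. The LFNG difference was 0.26 without posterior library 1. It was 1.71 without posterior library 2, which left posterior library 1 alone on its side. RFNG, another fringe enzyme, measured 15.0 and 14.3 RPKM in anterior libraries, against 7.90 and 16.3 RPKM in posterior libraries, so its sides overlapped. Within a library the LFNG level was 1.75 and 1.70 times the RFNG level in the anterior libraries, against 0.892 and 1.28 times in the posterior libraries. This ratio was higher in both anterior libraries than in either posterior library.

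The 3 targets all had both anterior libraries above both posterior libraries, as did 18.9% of all tested genes. Without posterior library 1 their log2 differences of 0.31 to 0.49 were above the 0.11 and 0.17 of the receptors. Those of DLK2, 0.41, and of its paralog DLK1, 0.31, given below, lay inside their range. The other tested genes listed as targets in a wider pathway list, given below, had -0.16 to 0.060 without that library. The row HAIRY1, which is not on that list and is also given below, had 0.32. These contrasts between genes were not tested. HEY1, a repressor of the HEY family, measured 15.7 and 17.8 RPKM in anterior libraries, against 6.32 and 13.3 RPKM in posterior libraries. The log2 difference of HEY1 was 0.79 ± 0.38 (SE), and 0.31 without posterior library 1. HEYL, a further HEY repressor, measured 3.99 and 3.37 RPKM in anterior libraries, with 1.25 and 2.32 RPKM in the posterior ones. The log2 difference of HEYL was 0.77 ± 0.31 (SE), and 0.49 without posterior library 1. NRARP, a small ankyrin repeat protein that is induced by Notch and limits its activity, had 4.15 and 3.37 RPKM in anterior libraries, with 1.79 and 2.43 RPKM in the posterior ones. Its log2 difference was 0.62 ± 0.27 (SE), and 0.47 without posterior library 1. HEY1 was the one member with a higher level in anterior library 2 than in anterior library 1. The HEY1 level was 3.94 and 5.29 times the HEYL level in the anterior libraries, against 5.04 and 5.76 times in the posterior libraries, so this ratio overlapped between the sides.

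**Figure D2:**
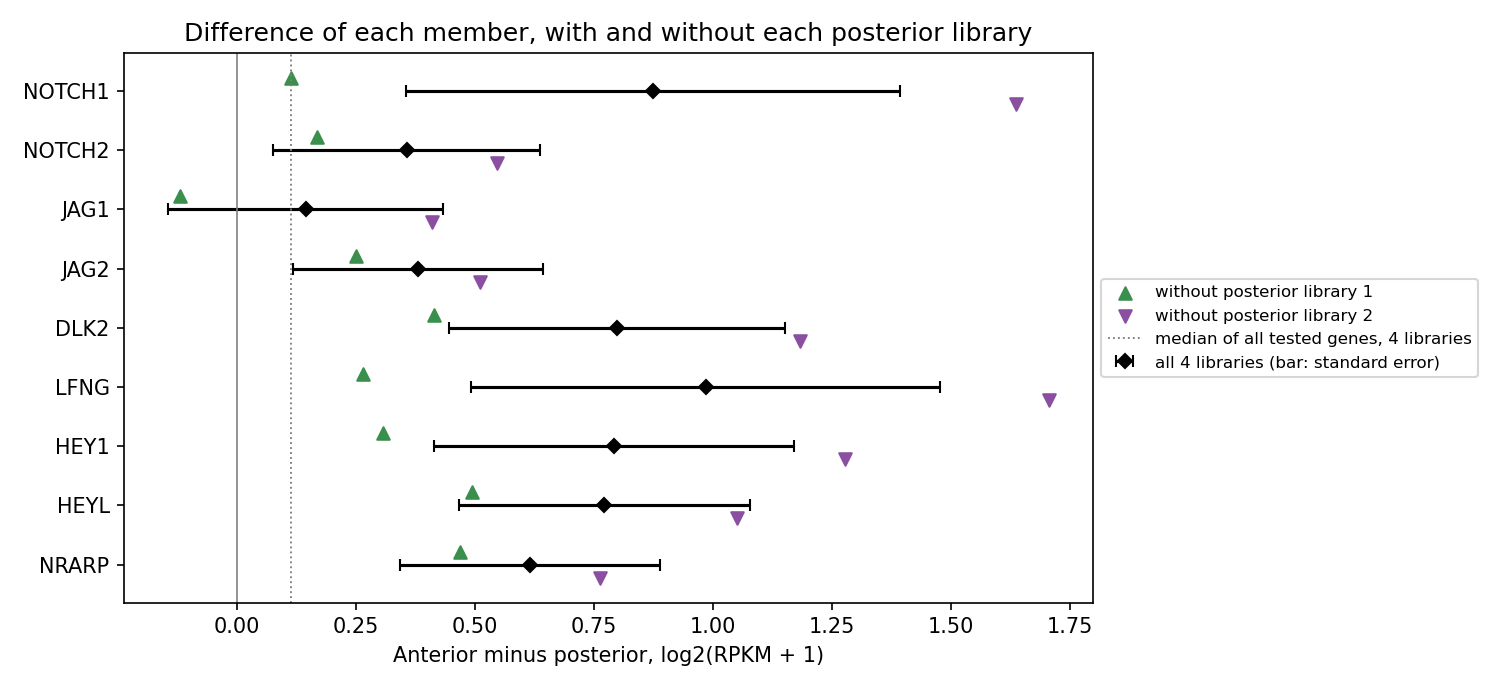
Difference in log2(RPKM + 1), anterior minus posterior, for each member over all 4 libraries (diamonds with standard error), without posterior library 1 (upward triangles) and without posterior library 2 (downward triangles). The members spread from 0.14 (JAG1) to 0.99 (LFNG) over all libraries and from -0.12 (JAG1) to 0.49 (HEYL) without posterior library 1.

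The members ranked differently depending on which posterior library was set against the anterior mean. Against posterior library 1, the ratio of RPKM levels was 3.84 for NOTCH1, 3.70 for DLK2 and 3.59 for LFNG, followed by 2.93 for HEYL, 2.65 for HEY1 and 2.10 for NRARP. It was 1.36 to 1.51 for JAG1, JAG2 and NOTCH2. Against posterior library 2, the ratio was 1.59 for HEYL, 1.55 for NRARP and 1.49 for DLK2, the least abundant members. It was 1.26 for HEY1, 1.21 for LFNG and for JAG2, 1.14 for NOTCH2, 1.09 for NOTCH1 and 0.917 for JAG1. NOTCH1 therefore had the highest ratio against one posterior library and the second lowest against the other.

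Posterior library 1 was the lowest library for 9 of 9 members, and for 54.5% of all tested genes. As a share of the mean of the other 3 libraries, its level was 26.8% for NOTCH1, 29.6% for LFNG and 30.4% for DLK2. It was 38.9% for HEYL, 40.4% for HEY1 and 54.1% for NRARP, and 69.1% to 72.5% for NOTCH2, JAG1 and JAG2. The median of this share over all tested genes was 82.6%, and 2.86% of tested genes had a share as low as that of NOTCH1. The members were thus uneven within this library. In RNA from whole tissue, fewer cells of a type and less RNA per cell cannot be told apart.

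Markers of other cell types were read beside these values. The smooth muscle sum ran opposite to the members in posterior library 1, with the muscle myosin gene MYH11 at 50.5 and 25.3 RPKM in anterior libraries, against 1222 and 16.8 RPKM in posterior libraries. Of 8 smooth muscle markers, 0 had non-overlapping sides. Among all tested genes 18.9% had both anterior libraries on top and 7.25% both posterior libraries. The dermal papilla sum of 12 markers was 200.1 and 223 RPKM in anterior libraries, against 127 and 216 RPKM in posterior libraries. Both anterior libraries were on top for 4 of 12, beside 18.9% of all tested genes. Posterior library 1 was the lowest library for 8 of 12, beside 54.5%, so these markers were divided in it. The melanocyte sum of 8 markers was 35.6 and 42.3 RPKM in anterior libraries, against 19.0 and 29.8 RPKM in posterior libraries. Both anterior libraries were on top for 5 of 8, beside 18.9% of all tested genes. Only 6 of the 8 were expressed highly enough to be tested, and the untested ones were among the 5. The part of these cell types in the members' differences was not tested. The endothelial sum was 182 and 211 RPKM in anterior libraries, against 196 and 206 RPKM in posterior libraries. Both anterior libraries were on top for 2 of 11 markers and both posterior libraries for 4 of 11, beside 18.9% and 7.25%. The endothelial markers were divided in posterior library 1, which was the lowest library for 7 of 11, beside 54.5% of all tested genes. The receptor gene TIE1 measured 8.11 and 8.35 RPKM in anterior libraries, against 3.47 and 7.09 RPKM in posterior libraries. The adhesion gene PECAM1 measured 39.2 and 33.5 RPKM in anterior libraries, against 70.1 and 40.5 RPKM in posterior libraries. The part of endothelium was likewise not tested. The epidermal sum of 12 markers was 3296 and 1345 RPKM in anterior libraries, against 1844 and 1547 RPKM in posterior libraries, so it was highest in anterior library 1. In that library 8 of 9 members were higher than in anterior library 2, as were 53.2% of all tested genes. The part of epidermis in this was not tested. The leukocyte sum of 7 markers was 308 and 358 RPKM in anterior libraries, against 366 and 324 RPKM in posterior libraries. Most of this sum came from 1 marker. Posterior library 1 was the lowest library for 0 of 7, beside 54.5% of all tested genes. The mesenchyme sum of 6 markers was 2447 and 1858 RPKM in anterior libraries, against 3419 and 2099 RPKM in posterior libraries. Posterior library 1 had the highest sum but was the lowest library for 3 of 6, beside 54.5%, so these markers too were divided in it. The sum of 6 nerve and Schwann cell markers was 3.62 to 5.52 RPKM over the 4 libraries. No marker of the smooth muscle, endothelial, epidermal, dermal papilla, melanocyte, leukocyte or mesenchyme lists was at 0 in any library.

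**Figure D3:**
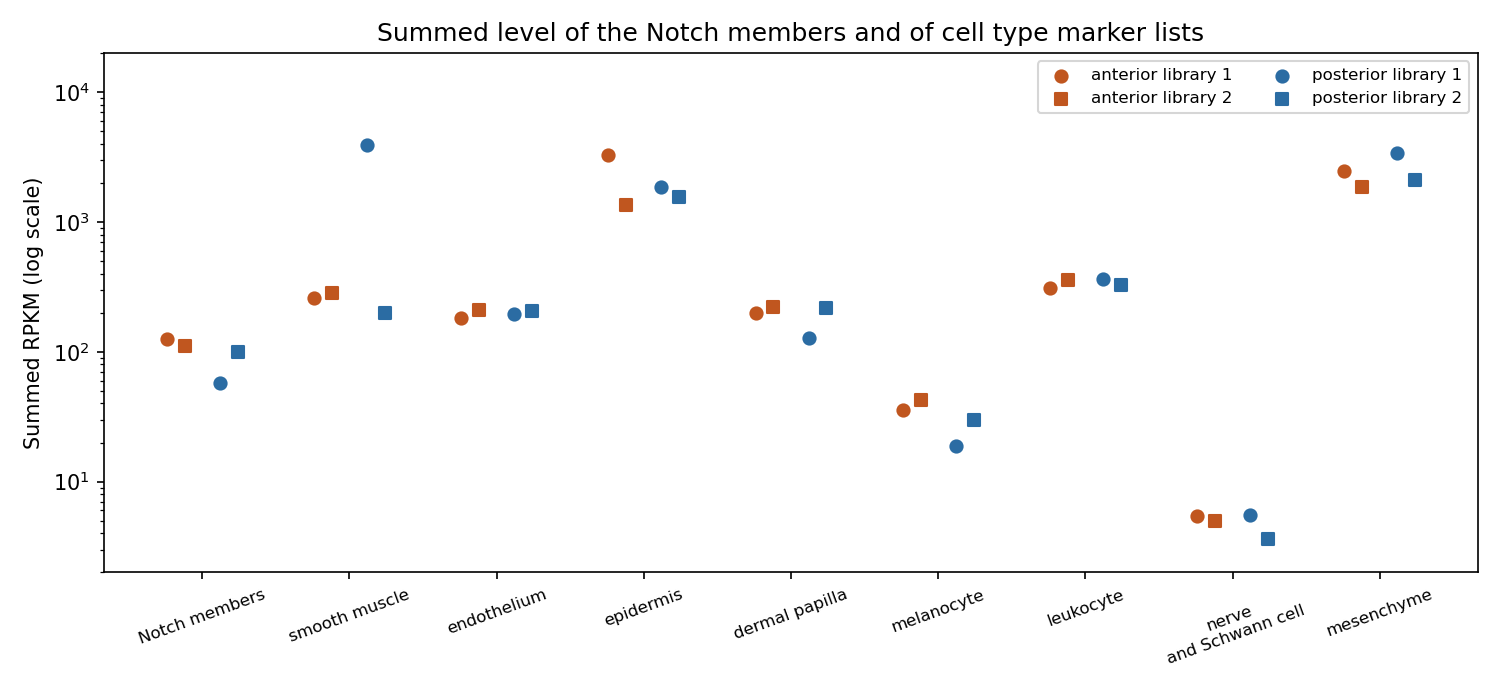
Summed RPKM (log scale) of the 9 members and of each marker list in each library, anterior left of posterior. The members sum to 125 and 110 RPKM in the anterior libraries, against 57.3 and 100.4 RPKM in the posterior ones, while the smooth muscle sum of posterior library 1 is 3934 RPKM.

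A wider list of the pathway, ordered by role, matched 48 of 57 names, and 43 of these were expressed highly enough to be tested. None passed the test (limma, adjusted p under 0.05), and 1 gene, HEYL, had an unadjusted p under 0.05. Both anterior libraries were on top for 18 of 43 genes and both posterior libraries for 2, beside 18.9% and 7.25% of all tested genes. After median ratio scaling the counts were 14 and 3 for the pathway, and 1466 and 1392 for all tested genes. Without the 9 members, 11 of the other 34 genes had both anterior libraries on top, beside 18.9% of all tested genes. Their median log2 difference was 0.30, beside 0.11 for all tested genes. Without posterior library 1 these medians were 0.10 and 0.023. After median ratio scaling 7 of these 34 genes had both anterior libraries on top, beside 13.4% of all tested genes. The medians were then 0.17 and -0.0057. The highest differences of the pathway were those of LFNG, KAT2A, NOTCH1, DLK2, HEY1 and HEYL, while NOTCH2, JAG1 and JAG2 lay among the other genes.

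Among the remaining ligands, DLL1, a Delta-type activator, measured 5.91 and 5.50 RPKM in anterior libraries, against 3.10 and 4.45 RPKM in posterior libraries. DLK1, the paralog of DLK2, measured 2.86 and 3.46 RPKM in anterior libraries, against 1.43 and 2.34 RPKM in posterior libraries. DLL4, a Delta ligand known from blood vessels, measured 4.77 and 5.12 RPKM in anterior libraries, against 3.94 and 5.87 RPKM in posterior libraries. The sides did not overlap for DLL1 and DLK1 and overlapped for DLL4. Their log2 differences were 0.50, 0.54 and 0.028, and that of DLL4 was -0.088 after median ratio scaling and -0.15 after quantile normalization. Counting JAG1, JAG2 and DLK2, all 6 tested ligands had positive differences as deposited, beside 64.6% of all tested genes. Both anterior libraries were on top for 4 of 6, beside 18.9%. Without posterior library 1 the differences were 0.30 for DLL1 and 0.31 for DLK1. They were negative without it for DLL4, at -0.21, and for JAG1, at -0.12.

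Of the machinery that cleaves the receptor, 5 of 7 tested genes had positive differences, a share near the 64.6% of all tested genes. The convertase FURIN measured 8.60 and 6.98 RPKM in anterior libraries, against 4.51 and 6.51 RPKM in posterior libraries. The sheddase ADAM10 measured 20.7 and 17.16 RPKM in anterior libraries, against 12.7 and 17.12 RPKM in posterior libraries. The gamma-secretase subunit APH1A measured 11.5 and 12.0 RPKM in anterior libraries, against 5.87 and 10.9 RPKM in posterior libraries. These 3 of 7 tested genes had both anterior libraries on top, beside 18.9% of all tested genes. For ADAM10 the gap between the sides was minimal. Without posterior library 1 the log2 differences of FURIN, ADAM10 and APH1A were 0.22, 0.13 and 0.10. Both anterior libraries were on top for 1 of 4 tested glycosylation genes, LFNG. The same held for 1 of 6 tested endocytosis genes, the ubiquitin ligase NEURL1 (listed as NEURL), again beside 18.9% of all tested genes. NEURL1 had a log2 difference of 0.23.

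Genes of the nuclear complex lay on both sides of 0. RBPJ itself measured 11.0 and 6.92 RPKM in anterior libraries, against 13.4 and 7.87 RPKM in posterior libraries. The sides overlapped, and its log2 difference was -0.21. The Mastermind coactivators did not share a sign. MAML1 and MAML3 had log2 differences of 0.38 and 0.48 with anterior on top. For MAML3 the gap between the sides was minimal, at 1.733 RPKM in anterior library 2 and 1.729 RPKM in posterior library 2. MAML2 had -0.34 with posterior on top, at 3.22 and 2.51 RPKM in the anterior libraries, against 4.45 and 3.35 RPKM in the posterior ones. The acetyltransferase KAT2A measured 10.04 and 9.36 RPKM in anterior libraries, against 2.63 and 8.14 RPKM in the posterior ones, a pattern with a deep low in posterior library 1. Its log2 difference of 0.89 was 0.23 without that library. The coactivator EP300 and the corepressor SPEN had differences of 0.40 and 0.28, with anterior on top. In all, 5 of 11 tested genes of this role had both anterior libraries on top and 1 had both posterior libraries on top, beside 18.9% and 7.25% of all tested genes.

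Not every gene listed as a target went with HEY1, HEYL and NRARP. HES4, a hairy-related repressor, measured 2.10 and 3.05 RPKM in anterior libraries, against 1.10 and 2.54 RPKM in posterior libraries. The ubiquitin ligase genes DTX2 and DTX4 had log2 differences of 0.34 and 0.25. The sides overlapped for all 3 of these genes, and without posterior library 1 their differences were -0.00075, 0.060 and -0.082. BHLHE40, a repressor with inputs from several pathways, measured 7.05 and 5.74 RPKM in anterior libraries, against 8.74 and 7.22 RPKM in posterior libraries, so both posterior libraries were on top. HES5 and HES6 did not exceed 0.153 RPKM anywhere and were not tested. DTX1, also below the filter, measured 0.404 and 0.654 RPKM in anterior libraries, against 0.0808 and 0.172 RPKM in posterior libraries, with both anterior libraries on top. The row listed as HAIRY1, a name that RefSeq gives as a synonym of HES4 although HES4 has a row of its own, measured 28.3 and 21.2 RPKM in anterior libraries, against 16.7 and 19.5 RPKM in posterior libraries. Its sides did not overlap, and its log2 difference was 0.42, or 0.32 without posterior library 1. This row was added after its values were seen.

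**Figure D4:**
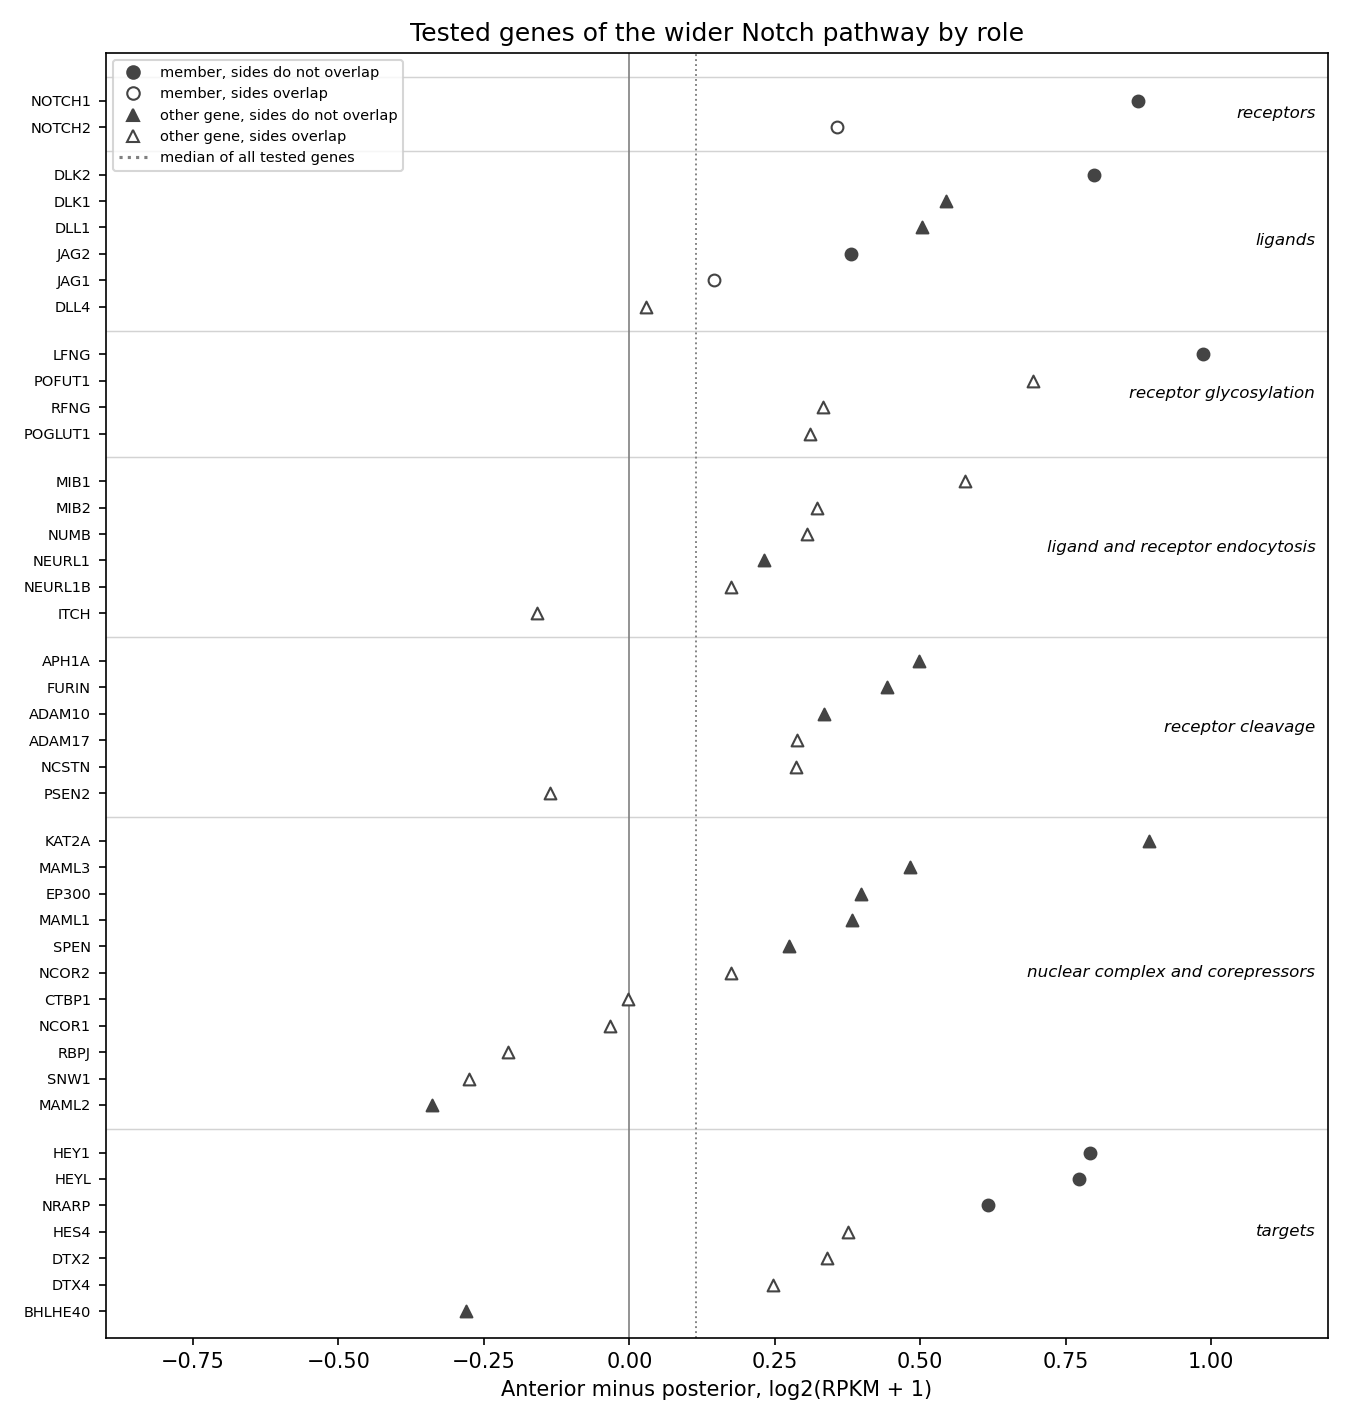
Difference in log2(RPKM + 1), anterior minus posterior, of the tested pathway genes grouped by role, less 1 gene that is not reported here. Filled symbols mark genes whose anterior and posterior libraries do not overlap, circles mark the 9 members, and the dotted line is the median of all tested genes at 0.11.

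By mean level over the 4 libraries the order was LFNG at 19.6 RPKM, JAG2 at 19.3, NOTCH2 at 16.6, HEY1 at 13.3, JAG1 at 12.6, NOTCH1 at 8.86, NRARP at 2.94, HEYL at 2.73 and DLK2 at 2.47 RPKM. The ranges of every pair of neighbours in this order overlapped. Within a library, the order of a pair held in 4 of 4 libraries for JAG2 over NOTCH2, JAG1 over NOTCH1, NOTCH1 over NRARP, NRARP over HEYL and HEYL over DLK2. LFNG lay above JAG2 in 3 of 4 libraries, with posterior library 1 the exception, and HEY1 lay above JAG1 in 2 of 4. NRARP, HEYL and DLK2, the lowest by mean, stood between the percentiles 30.7 and 46.7 of all genes in the table, over all libraries, and NOTCH1 in posterior library 1 stood at the percentile 45.2.

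The genes with the most similar profile over the 4 libraries were sought among 6825 named genes with a mean of at least 5 RPKM, by the root mean square distance between centred log2(RPKM + 1) values. Nearest to NOTCH1 were SLC7A3, SF3B3 and TSPAN18, at distances of 0.033, 0.033 and 0.043. Nearest to HEY1 were KLF4, ADAMTS19 and AHCYL1, at 0.027, 0.042 and 0.045, and KLF4 measured 33.2 and 38.6 RPKM in anterior libraries, against 14.1 and 29.7 RPKM in posterior libraries. Nearest to JAG1 were UBE4B, RAB1A and TMEM30A, at 0.014 to 0.016. With 4 libraries, such likeness was not confined to the genes named. Of the 6825 genes, 25 lay within 0.1 of NOTCH1, 53 within 0.1 of HEY1 and 372 within 0.1 of JAG1.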

How the data were processed

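Per the labels' protocols, RNA of 4 dissected samples was made into TruSeq libraries. The values used are the RPKM table deposited by the authors, annotated with Ensembl 78 per its name. TopHat2, Partek and the build galGal4 are named in the submitters' processing notes. Counting rules and the strand setting are not given in the sources used here. Rows were matched by symbol, and NEURL1 and 4 markers by a unique synonym in an NCBI RefSeq gene table of another assembly, used for names only.

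A gene was tested if 2 or more libraries had at least 1 RPKM, on log2(RPKM + 1), which understates the change of low genes, with limma 3.58.1 in R 4.3.3 (eBayes with trend, two-sided, 2 residual degrees of freedom). The call rule was a Benjamini-Hochberg adjusted p under 0.05. The test was checked on simulated data with the same spread for all genes and no outlying library. That is a simpler case than these data, so the check does not show how the test performs here. Python 3.11.15 and matplotlib 3.10.9 made the descriptions and plots. All members are named, with the wider list's tested ligands, receptors and targets and its genes of other roles whose sides do not overlap. A gene of the wider list and a marker are not reported here by name. Further genes were named after their values were seen. Members and lists were chosen with earlier results of these data known. Alternatives were other pseudocounts, filters, scalings and variance models, a block for the library number, and leaving out each library. TPM scaling was added after the data were seen.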

Additional observations from a re-analysis of the deposited data

How the results depend on the processing

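Over the 9 settings that can alter a member's difference, 80 of 81 differences were positive, the exception being JAG1 at -0.12 without posterior library 1. The settings reuse the same 4 libraries, so this count is not replication. In these settings 49.2% (median ratio scaling) to 67.1% (TPM scaling) of all tested genes had a positive difference. The differences ran from 0.11 to 1.64 for NOTCH1, from 0.26 to 1.71 for LFNG, from 0.31 to 1.28 for HEY1, from 0.41 to 1.18 for DLK2, from 0.49 to 1.06 for HEYL and from 0.45 to 0.81 for NRARP. Leaving out 1 library, which leaves a lone library assumed to vary like the other side, gave 0 to 2 members, 0 to 3 pathway genes and 0 to 226 of all tested genes past the limma threshold. All calls arose without posterior library 2, where the members were NOTCH1 and LFNG and the further pathway gene was KAT2A. Over the 4 libraries left out in turn, the member median ran from 0.26 to 1.05. Both anterior libraries, or the one left, were on top for 7 to 9 members and 20 to 33 pathway genes, against 18 with all libraries, a pattern easier to meet with 3 libraries, as 30.0% to 56.4% of all tested genes met it. At a filter of 5 RPKM fewer genes were tested. Both anterior libraries were on top for 4 of 6 members and 11 of 32 pathway genes, beside 17.7% of all tested genes. The count was 7 of 9 members after median ratio scaling, 8 after quantile normalization and 5 after TPM scaling, beside 13.4%, 13.0% and 9.84% of all tested genes, and after TPM scaling NOTCH1 and JAG2 also overlapped. No label ties library 1 or 2 of a side to that of the other. Within-side differences correlated across genes (r = 0.49, genes not being independent), and with a replicate block 2 of all genes and 0 of 9 members passed, and 5 members and 617 of all genes had an unadjusted limma p under 0.05, on 1 residual degree of freedom. Read numbers are unknown, so counting error could not be given.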
